A study of Mus musculus with 7 samples.

Results

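The Prader-Willi imprinted cluster on mouse chromosome 7 was examined through 8 genes, Atp10a, Ube3a, Snrpn, Snurf, Ndn, Magel2, Mkrn3 and Peg12, which were picked by name from the 27179 genes of each count file and ordered along the chromosome. RNA-seq had been run on 7 cell lines from end-stage lymphomas of male C57BL/6 mice carrying the Eµ-Myc transgene, in which an immunoglobulin heavy chain enhancer drives Myc in B cells. The 3 wild-type lines carried normal Smchd1, and the 4 Smchd1 null lines were homozygous for a Smchd1 mutation, given as a gene trap in the labels and as the MD1 allele in the methods of the study. Both groups carried the Myc transgene, and the ages of the mice were not given in the sources used here. Each line is treated as a replicate, although nothing in the sources states that the lines came from separate mice, so p-values measure the spread between these lines.

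In an imprinted gene, only the copy inherited from one parent is used. In this cluster Snrpn, Snurf, Ndn, Magel2, Mkrn3 and Peg12 are normally read from the paternal copy, Ube3a is read from the maternal copy in neurons and from both copies elsewhere, and the imprinting of Atp10a varies between tissues and reports. Loss of the paternal copy of the human counterpart causes Prader-Willi syndrome, and loss of maternal UBE3A causes Angelman syndrome. Smchd1 is a chromatin protein known for its part in silencing the inactive X chromosome and some autosomal gene clusters. The counts do not separate the parental copies, so the levels below are totals over both.

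Counts per library ran from 3626853 to 7519549, and CPM is the count as a share of that total, in parts per 1000000. Smchd1 itself averaged 232 ± 14.8 CPM (SD, n = 3) in wild-type lines and 26.5 ± 2.85 CPM (SD, n = 4) in Smchd1 null lines, which did not overlap. Wild-type replicates 2 and 3 stood apart as a close pair: their leading log2 fold change distance was 1.26, against at least 3.11 for every other pair within a group, although their counts still differed by more than sampling noise. Wild-type replicate 1 was the only library of batch 1 and the only single-end one. Of the 8 B cell markers, all were counted in every library except wild-type replicate 3, which had counts for 7, but their summed level was 513 CPM in Smchd1 null replicate 4 and 1285 to 2320 CPM in the other 6 libraries. Of 7 neuron markers 5 were at 0 in every library. In limma with sample weights, 12303 genes were tested and 1466 passed an FDR of 0.05, of which 623 (5.06%) were higher and 843 (6.85%) lower in the Smchd1 null lines. The weights were 0.246, 3.78 and 3.06 for wild-type replicates 1 to 3. For Smchd1 null replicates 1 to 4 they were 1.06, 1.60, 0.831 and 0.249. A library with a low weight had little influence on the fit, while the means, SDs and fold bounds given here are unweighted.

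Peg12, Mkrn3 and Atp10a, the outer members of the cluster, were at 0 counts in all 3 wild-type lines and were counted in all 4 Smchd1 null lines. Ube3a was expressed in every line with overlapping groups, Snrpn was barely detected, and Ndn, Magel2 and Snurf were at or next to 0 everywhere. The 300-base windows around an annotated start of Peg12, Mkrn3 and Atp10a are printed first, from RefSeq sequence on GRCm38.p6, the same assembly as mm10. Each runs from 250 bases before to 50 bases after that start and is read on the strand of the gene. For Atp10a the window lies inside the gene span given below, at a start downstream of the first base of that span.

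The Peg12 window (chr7:62464461-62464760, minus strand) is shown because it carries a stretch in common with both other FRAT genes. Capitals mark the 24-base run, positions 223 to 246 counted from 1 at the 5′ end, that also ends the Frat2 window. Its first 20 bases end the Frat1 window.
Peg12: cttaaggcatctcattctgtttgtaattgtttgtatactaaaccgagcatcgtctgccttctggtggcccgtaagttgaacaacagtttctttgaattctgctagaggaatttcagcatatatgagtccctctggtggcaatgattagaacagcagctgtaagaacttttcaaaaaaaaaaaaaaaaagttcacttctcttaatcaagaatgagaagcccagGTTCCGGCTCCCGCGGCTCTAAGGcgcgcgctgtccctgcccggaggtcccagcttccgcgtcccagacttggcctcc
The Mkrn3 window (chr7:62420104-62420403, minus strand) and the Atp10a window (chr7:58657952-58658251, plus strand) are shown for their CpG dinucleotides, the bases that imprinting marks by methylation, which are in capitals.
Mkrn3: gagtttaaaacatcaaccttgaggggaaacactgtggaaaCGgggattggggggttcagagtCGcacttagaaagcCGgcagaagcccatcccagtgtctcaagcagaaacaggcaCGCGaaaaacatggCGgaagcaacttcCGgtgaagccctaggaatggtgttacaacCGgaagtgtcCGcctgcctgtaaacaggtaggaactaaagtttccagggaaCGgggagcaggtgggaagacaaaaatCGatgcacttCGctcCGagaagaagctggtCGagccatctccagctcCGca
Atp10a: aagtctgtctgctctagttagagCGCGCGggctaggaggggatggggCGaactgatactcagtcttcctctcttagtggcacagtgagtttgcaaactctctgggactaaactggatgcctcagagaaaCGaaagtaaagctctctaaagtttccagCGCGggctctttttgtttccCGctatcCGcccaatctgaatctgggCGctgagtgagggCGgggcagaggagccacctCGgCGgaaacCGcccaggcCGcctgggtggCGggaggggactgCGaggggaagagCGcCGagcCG
The windows of the 3 genes held 12 CpG in Peg12, 15 in Mkrn3 and 20 in Atp10a, against a median of 7 over 32851 RefSeq windows of the same length. Ube3a, expressed in every line, had 29. Ndn had 11, Magel2 10 and the window shared by Snrpn and Snurf 7.

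The Snrpn window at the start it shares with Snurf (chr7:60005150-60005449, minus strand) and the Ndn window (chr7:62348027-62348326, plus strand) are printed because both hold CGCATGCG, the core of the NRF1 motif, which is in capitals. This motif was looked for after the windows had been seen.
Snrpn and Snurf: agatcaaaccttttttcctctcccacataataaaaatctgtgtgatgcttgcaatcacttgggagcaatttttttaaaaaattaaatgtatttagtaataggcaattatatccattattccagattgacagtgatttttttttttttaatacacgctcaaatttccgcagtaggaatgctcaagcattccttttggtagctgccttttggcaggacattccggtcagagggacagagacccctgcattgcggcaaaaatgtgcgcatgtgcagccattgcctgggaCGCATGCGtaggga
Ndn: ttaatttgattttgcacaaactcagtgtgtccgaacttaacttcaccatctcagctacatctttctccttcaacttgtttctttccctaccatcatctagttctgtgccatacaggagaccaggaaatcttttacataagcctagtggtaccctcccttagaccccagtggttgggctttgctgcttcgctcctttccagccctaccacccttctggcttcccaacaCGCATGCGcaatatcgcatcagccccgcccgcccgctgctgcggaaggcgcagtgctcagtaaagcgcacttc
CGCATGCG, which reads alike on both strands, occurred in 615 of 32851 windows (1.87%), including all 4 Snrpn windows in the table, 1 for each of its annotated starts. It was not in the windows of Peg12, Mkrn3, Atp10a, Magel2 or Ube3a. CACGTG, the E-box bound by Myc, which also reads alike on both strands, was in 7.15% of windows and in none of the members, and TGCCGC, the motif of the imprint-keeping factor ZFP57 searched on both strands, was in 11.6% and among members only in the window shared by Snrpn and Snurf. These matches are descriptions of the sequence.

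Peg12, also named Frat3, encodes a paternally expressed relative of the FRAT proteins, which bind GSK3 and act in Wnt signalling. It is a single-exon gene at chr7:62461871-62464510. It had 0 counts in wild-type replicates 1, 2 and 3, and 432, 471, 232 and 224 counts in Smchd1 null replicates 1 to 4. In CPM these were 64.0, 75.7, 35.8 and 29.8. All 4 Smchd1 null lines were high and the groups did not overlap. The Smchd1 null mean was 51.3 ± 22.0 CPM (SD, n = 4), and 3 counts in the summed wild-type depth of 16546416 correspond to 0.181 CPM, so Peg12 was at least 283-fold higher. The log2 fold change fitted against these zeros was 9.49 ± 0.92 (SE) with an FDR of 0.00272, and the two-sided exact permutation p over the 35 splits was 0.0286, the smallest they allow. These splits count the close pair, wild-type replicates 2 and 3, as separate lines. Per length, Peg12 reached 24.2, 28.7, 13.6 and 11.3 RPKM, above 55.9% to 75.6% of the genes counted in the same library. It was thus in the same range as Ube3a, at 17.0, 18.0, 14.4 and 13.6 RPKM in the same 4 lines.

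**Figure D1:**
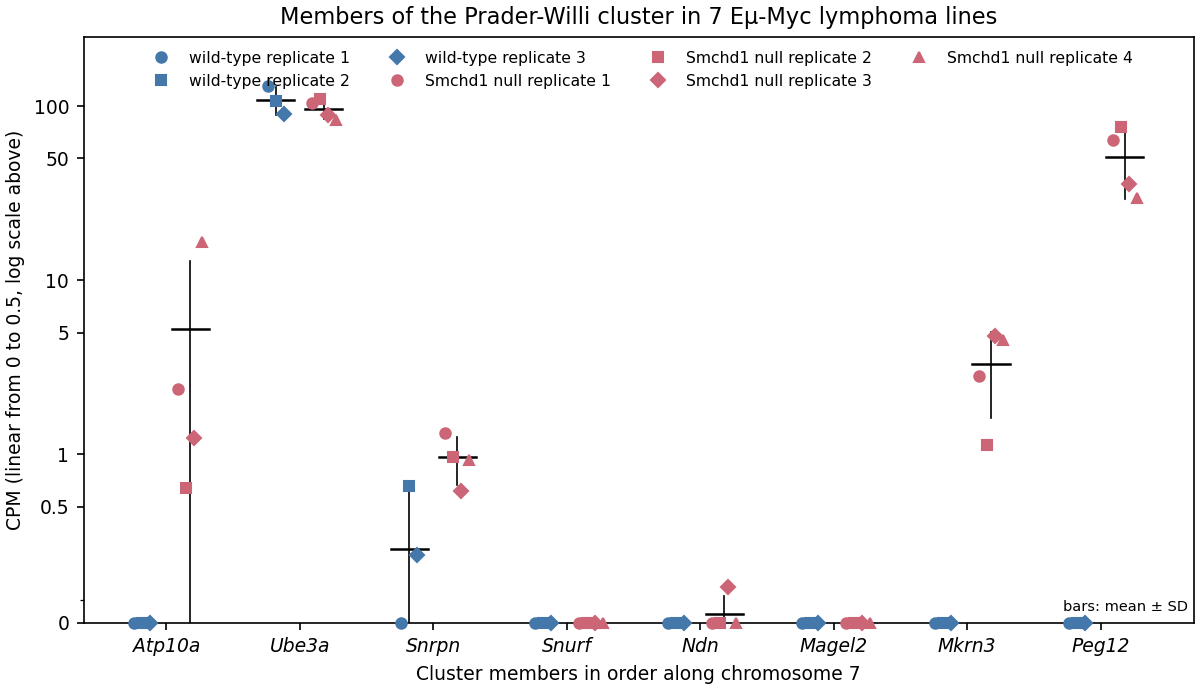
CPM of the 8 members in each line (y axis linear up to 0.5 CPM and logarithmic above), with wild-type lines in blue, Smchd1 null lines in red, and black bars for the mean ± SD. Peg12, Mkrn3 and Atp10a are at 0 in the 3 wild-type lines and above 0 in the 4 Smchd1 null lines, while Ube3a lies between 83.2 and 130 CPM in all 7.

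Mkrn3 encodes a makorin RING-finger protein, a ubiquitin ligase known as a brake on the onset of puberty. It lies at chr7:62417593-62420153 in a single exon, and its start is 44.4 kb from that of Peg12. It had 0 counts in the 3 wild-type lines and 19, 7, 31 and 34 counts in Smchd1 null replicates 1 to 4, or 2.81, 1.12, 4.79 and 4.52 CPM. Every Smchd1 null line was above every wild-type line, at a level far below that of Peg12. The mean of 3.31 ± 1.70 CPM (SD, n = 4) was at least 18.3-fold above the wild-type floor. The fitted log2 fold change was 4.87 ± 0.68 (SE) with an FDR of 0.0103, and the exact permutation p was 0.0571.

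Atp10a encodes a phospholipid flippase, an enzyme that moves lipids between the leaflets of the membrane. It lies at the other end of the cluster, at chr7:58656142-58830244, 3.81 Mb from Peg12 between starts. It had 0 counts in the 3 wild-type lines and 16, 4, 8 and 125 counts in Smchd1 null replicates 1 to 4, or 2.37, 0.642, 1.24 and 16.6 CPM. Smchd1 null replicate 4, the line with the low B cell marker sum, stood far above the other 3. The mean was 5.22 ± 7.64 CPM (SD, n = 4), at least 28.8-fold above the floor, and without Smchd1 null replicate 4 the bound was 7.81-fold. The fitted log2 fold change was 4.22 ± 0.82 (SE) with an FDR of 0.0206, and 3.90 with an FDR of 0.0168 without that line. The exact permutation p for the difference in mean CPM was 0.200. Any link between the marker sum and Atp10a was not tested.

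The 3 genes did not rise to the same order in the 4 Smchd1 null lines. Peg12 was highest in Smchd1 null replicate 2, where Mkrn3 and Atp10a were lowest. Peg12 was lowest in Smchd1 null replicate 4, where Atp10a was highest. Peg12 had 22.7, 67.3, 7.48 and 6.59 times the counts of Mkrn3 in Smchd1 null replicates 1 to 4. The exact 95% Poisson interval for Mkrn3, which covers counting error only, ran from 0.452 to 2.32 CPM in Smchd1 null replicate 2 and from 3.25 to 6.80 CPM in replicate 3, so these lines differed by more than counting error. From the lowest to the highest Smchd1 null line, Peg12 spanned 2.54-fold, Mkrn3 4.26-fold and Atp10a 25.9-fold, against 1.33-fold for Ube3a.

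Of the 8 members 5 passed the low-count filter of 0.5 CPM in 3 or more libraries, and 3 of them were higher at FDR 0.05, where 5.06% of all genes tested were higher. A gene at 0 in wild-type passes that filter only through the Smchd1 null lines. Of the 16882 genes with any count, 64 (0.379%) were at 0 in every wild-type line and counted in every Smchd1 null line, and Peg12 ranked 3 among them by mean CPM, Atp10a 26 and Mkrn3 33. Every Smchd1 null line was above every wild-type line for 781 (6.35%) of the genes tested. The reverse, 0 in every Smchd1 null line and counted in every wild-type line, held for 27 genes (0.16%) and for no member.

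With sample weights, the FDR of these 3 genes changed with how wild-type replicates 2 and 3 were entered in the fit. With those libraries summed, the FDR was 0.646 for Peg12, 0.748 for Mkrn3 and 0.843 for Atp10a, and it was 0.691 or more for all 3 with 1 or the other left out, while the counts of 0 were found in each wild-type line by itself. The fit on the summed libraries called 0.00825% of all genes tested. Summing or leaving out a library also left fewer wild-type columns in the fit, and the cause of the change was not tested. With voom alone, which called 0.0406% of genes higher, the FDRs were 0.0982, 0.149 and 0.351. Peg12 (FDR = 0.0418) was the only one of the 3 called by edgeR's quasi-likelihood test, which called 0.0569% of genes higher, and DESeq2 called all 3, with 1.57% of genes called higher. Within batch 2, without wild-type replicate 1, the FDRs were 0.00563, 0.0120 and 0.0265. The wild-type group of that fit was only the close pair, replicates 2 and 3, so its spread may be too small.

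**Figure D2:**
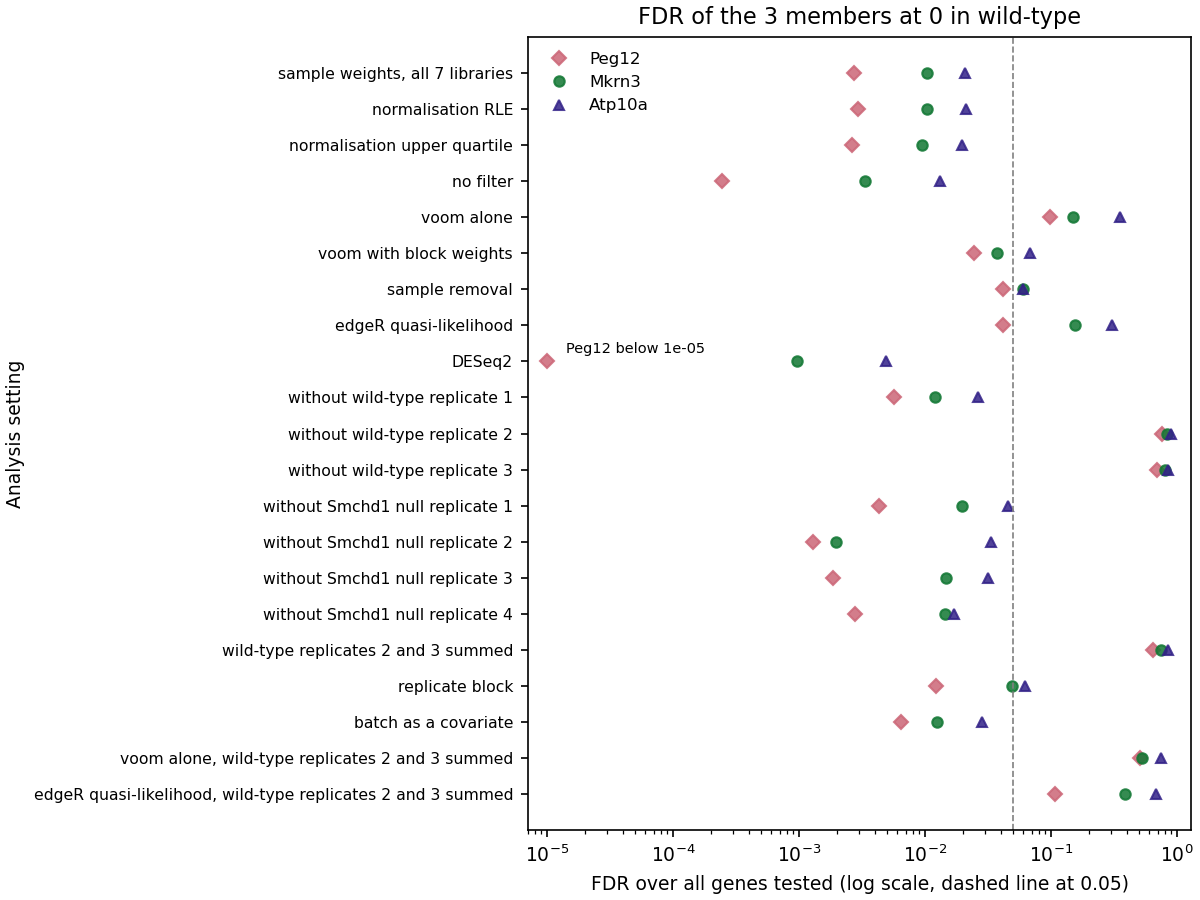
FDR over all genes tested (x axis, log scale, dashed line at 0.05) of Peg12, Mkrn3 and Atp10a in the analysis with sample weights and in each alternative (y axis). All 3 genes are past the line in the first line of the plot and none is when wild-type replicate 2 or 3 is left out or both are summed. The DESeq2 value of Peg12 is drawn at the left edge.

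Ube3a encodes the E3 ubiquitin ligase of Angelman syndrome and spans chr7:59228750-59310837. It had 470, 648 and 617 counts in wild-type replicates 1 to 3 and 704, 687, 573 and 626 counts in Smchd1 null replicates 1 to 4. The ranges overlapped, at 130, 106 and 90.4 CPM against 104, 110, 88.5 and 83.2 CPM. The means were 109 ± 19.7 CPM (SD, n = 3) and 96.6 ± 12.8 CPM (SD, n = 4), and the log2 fold change was 0.02 ± 0.12 (SE, FDR = 0.918), with an exact permutation p of 0.400. The sign of this value turned under other settings, down to -0.21 with edgeR on summed wild-type replicates 2 and 3, with no call in any. Part of Ube3a lies opposite the antisense RNA Snhg14, and the TruSeq kit did not keep strand. Snhg14 had 0 counts in every library, a 0 that is uncertain because the counting of reads that fall in both genes was not stated.

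Snrpn encodes SmN, a spliceosomal Sm protein used mainly in neurons and heart, and extends over chr7:59982495-60450177. It had 0, 4 and 2 counts in wild-type replicates 1 to 3 and 9, 6, 4 and 7 counts in Smchd1 null replicates 1 to 4. The wild-type mean was 0.316 ± 0.329 CPM (SD, n = 3) and the Smchd1 null mean 0.961 ± 0.293 CPM (SD, n = 4), with wild-type replicate 2 at 0.656 CPM above Smchd1 null replicate 3 at 0.618 CPM. The log2 fold change of 1.01 ± 0.52 (SE) had an FDR of 0.218, and the exact permutation p was 0.0857, so no difference was detectable at this depth. Snurf, the small upstream reading frame on the same transcript, had 0 counts in all 7 libraries. All of its exon bases lie within Snrpn exons in the GENCODE annotation, and how the authors' counting treated reads that fall in both genes was not stated, so the 0 of Snurf is uncertain.

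Ndn and Magel2 encode MAGE family proteins, of which necdin is a growth suppressor in neurons and Magel2 works with the WASH complex in protein recycling. Ndn (chr7:62348277-62349928) had 1 count in Smchd1 null replicate 3 and 0 in the other 6 libraries. Magel2 (chr7:62376979-62381640) had 0 counts in all 7. Ndn starts 116 kb from Peg12, and Magel2 and Mkrn3 lie between them. Both genes were thus not detectable at this depth in lines where their neighbours Mkrn3 and Peg12 were counted.

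The neighbourhood of the cluster was then read as a whole. From Tubgcp5 to Tarsl2, over 9.90 Mb, the files listed 55 genes, of which 25 had any count and 22 passed the filter. Atp10a, Mkrn3 and Peg12 were the only 3 at 0 in wild-type and counted in every Smchd1 null line. From Atp10a to Peg12 the files listed 29 genes, and 8 had any count. These 8 were not all members. The pseudogene Gm7367, inside the span of Snrpn, had 32, 168 and 202 counts in wild-type replicates 1 to 3. In Smchd1 null replicates 1 to 4 it had 127, 140, 139 and 161. The non-coding RNA A330076H08Rik had at most 2 counts in any library. Many genes at 0 were short miRNA or snoRNA genes, which these libraries may not capture, so their 0 does not show silence. The non-coding RNAs of the cluster in the list, among them Snhg14, Ipw and Snord64, were at 0 in every library for all 6 that matched. Snord64 and Snord116 are only 46 and 90 bases long, so their 0 may not show absence. Snhg14 overlaps Ube3a and Snrpn, and how reads that fall in several genes were counted was not stated, so its 0 is uncertain as well. On the side of Atp10a, 9 neighbouring genes matched, 5 were tested and none was called. Of these, Herc2, a ubiquitin ligase, was at 79.8 ± 9.79 CPM (SD, n = 3) against 90.4 ± 6.58 CPM (SD, n = 4), and Tubgcp5, Nipa1 and Nipa2 had FDRs of 0.392, 0.456 and 0.483. Cyfip1, an actin regulator, was at 146 CPM in Smchd1 null replicate 4 and 18.8 to 61.5 CPM in the other 6 lines (FDR = 0.935). Gabra5 and Gabrg3, which encode GABA receptor subunits, and Oca2, a pigmentation gene, had 0 counts in every library.

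On the side of Peg12, 12 neighbours matched, 9 were tested and 2 were higher, where 5.06% of all genes tested were. Their median log2 fold change was 0.21, against -0.0058 over all genes. Tjp1, which encodes the tight junction protein ZO-1, had 1, 0 and 0 counts in wild-type replicates 1 to 3 and 204, 149, 77 and 12 counts in Smchd1 null replicates 1 to 4. Every Smchd1 null line was above every wild-type line, and Smchd1 null replicate 4 was low. Its log2 fold change was 7.76 ± 1.48 (SE, FDR = 0.0195), with means of 0.0919 ± 0.159 CPM (SD, n = 3) and 16.9 ± 12.7 CPM (SD, n = 4). Its midpoint lies 2.95 Mb beyond Peg12. Nsmce3, a MAGE gene of the SMC5/6 complex and a relative of Ndn, was at 22.4 ± 4.25 CPM in wild-type lines (SD, n = 3) against 38.8 ± 7.92 CPM in Smchd1 null lines (SD, n = 4). It rose by a log2 fold change of 0.74 ± 0.15 (SE, FDR = 0.0245). The 7 not called were Otud7a, Klf13, Mtmr10, Fan1, Mphosph10, Mcee and Tarsl2, with FDRs of 0.163, 0.459, 0.769, 0.177, 0.275, 0.916 and 0.121. Chrna7, Trpm1 and Apba2 had 0 counts in every library. With wild-type replicates 2 and 3 summed, the FDR was 0.886 for Tjp1 and 0.773 for Nsmce3.

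**Figure D3:**
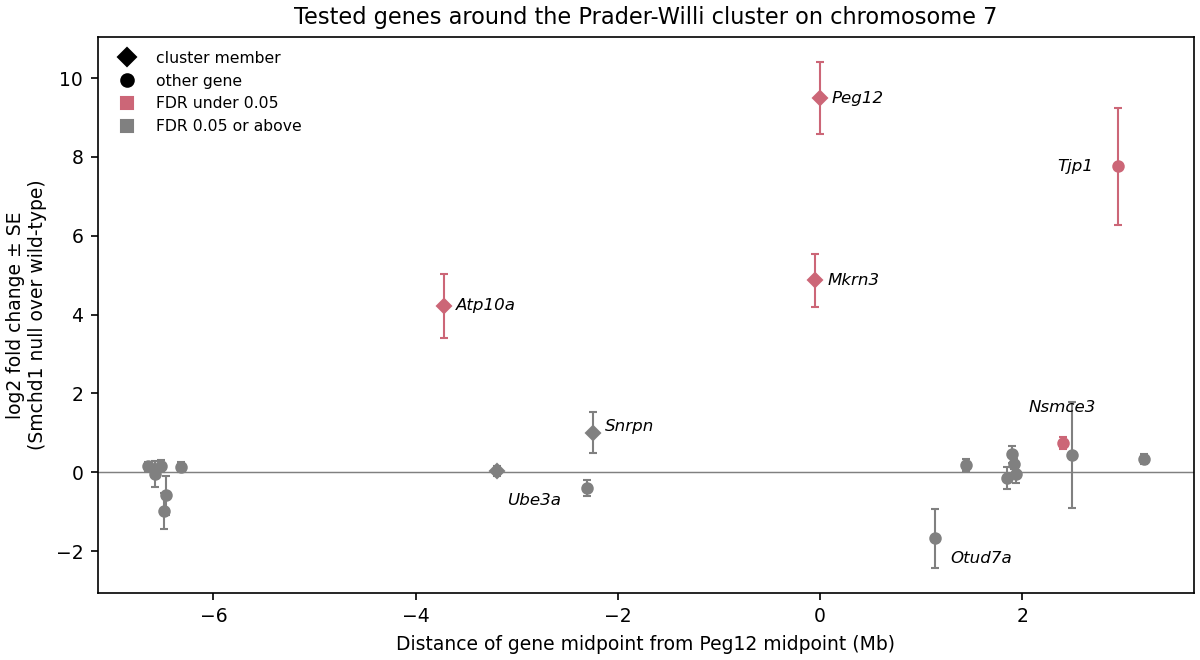
Log2 fold change ± SE, Smchd1 null over wild-type, of the 22 tested genes of the window against the distance of each gene's midpoint from that of Peg12 (x axis, Mb). Diamonds are cluster members and circles other genes, in red where the FDR is under 0.05. Peg12, Tjp1, Mkrn3 and Atp10a stand at 9.49, 7.76, 4.87 and 4.22, and the other 18 lie between -1.68 (Otud7a) and 1.01 (Snrpn).

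The members were next set beside their relatives elsewhere in the genome, for which 13 genes matched and 11 were tested, with 1 called higher (Nsmce3) and 2 called lower, at a median log2 fold change of -0.87 against -0.0058 over all genes. Frat1 had 20.1, 31.3 and 32.7 CPM in wild-type replicates 1 to 3 and 16.1, 13.7, 20.9 and 14.1 CPM in Smchd1 null replicates 1 to 4, which overlap in 1 line. Its log2 fold change was -1.002 ± 0.17 (SE, FDR = 0.0139). Frat2 had 58.2, 79.7 and 80.0 CPM in wild-type and 49.9, 40.6, 53.1 and 19.9 CPM in Smchd1 null lines, with no overlap, and a log2 fold change of -0.87 ± 0.18 (SE, FDR = 0.0256). These genes were thus lower in the lines in which Peg12 was counted. With wild-type replicates 2 and 3 summed the FDRs were 0.805 and 0.881, and no relative was called by voom alone, edgeR or DESeq2.

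Per length, the 3 FRAT genes together came to 44.3 ± 8.43 RPKM (SD, n = 3) in wild-type and 44.6 ± 12.9 RPKM (SD, n = 4) in Smchd1 null lines. By line the totals were 34.6, 48.9 and 49.5 RPKM in wild-type replicates 1 to 3. In Smchd1 null replicates 1 to 4 they were 53.5, 52.7, 46.1 and 25.9 RPKM, so the near-equal means hide a wide spread. Peg12 made up none of the total in wild-type and 45.3%, 54.4%, 29.4% and 43.6% in Smchd1 null replicates 1 to 4. Frat1 and Frat2 together were at 44.3 ± 8.43 RPKM and 25.1 ± 7.83 RPKM. The FRAT genes are similar in sequence, and how the authors treated reads that map to several of them was not stated. Frat1 and Frat2 were counted in every wild-type line while Peg12 was at 0 there. Whether reads shared by FRAT genes changed the counts of any of the 3 in the Smchd1 null lines was not tested.

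**Figure D4:**
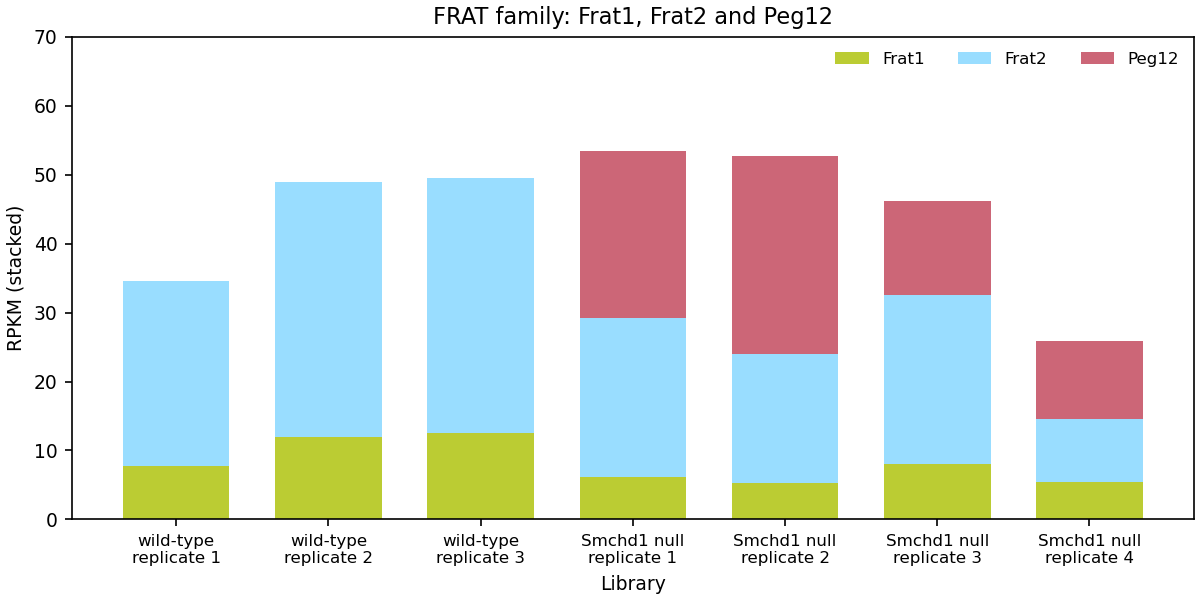
RPKM of Frat1, Frat2 and Peg12, stacked from 0, in each of the 7 lines. Peg12 is absent from the 3 wild-type bars and takes 29.4% to 54.4% of the 4 Smchd1 null bars.

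Mkrn3 came to 4.63 ± 2.25% (SD, n = 4) of the summed RPKM of the makorin genes in Smchd1 null lines, with Mkrn1 and Mkrn2 not called (FDR = 0.960 and 0.841). Snrpn came to 0.111 ± 0.038% (SD, n = 4) of the sum of Snrpn and Snrpb, its ubiquitous relative, at 326 ± 65.0 RPKM for Snrpb in wild-type (SD, n = 3) and 368 ± 29.8 RPKM in Smchd1 null lines (SD, n = 4). The Sm core proteins, partners of Snrpn in the spliceosome, had 0 of 7 tested genes called. The WASH, retromer and ubiquitin partners of Magel2 had 0 of 11 called, the flippases related to Atp10a 0 of 8, and the GSK3, Axin and Dishevelled genes around the FRAT proteins 0 of 9. Their median log2 fold changes were 0.21, 0.11, -0.07 and 0.04, against -0.0058 over all genes, of which 11.9% were called. Of 7 Ube3a partners tested 1 was called, Ube2l3, the ubiquitin-conjugating enzyme UbcH7, at 177 ± 56.9 CPM in wild-type (SD, n = 3) and 243 ± 66.0 CPM in Smchd1 null lines (SD, n = 4), which overlap (log2 fold change 0.55, FDR = 0.0347).

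Of 20 known regulators of imprints and DNA methylation, 16 were tested, 1 was called higher and 2 lower, where 5.06% of all genes tested were called higher and 6.85% lower. Their median log2 fold change was 0.0134, against -0.0058 over all genes. Dnmt3a, a de novo DNA methyltransferase, was lower in every Smchd1 null line, at 105 ± 23.6 CPM (SD, n = 3) against 69.9 ± 12.4 CPM (SD, n = 4), with a log2 fold change of -0.70 ± 0.17 (SE, FDR = 0.0383). Tet2, which oxidises methylcytosine, had a log2 fold change of -0.79 (FDR = 0.0402), and Kdm1b, a histone demethylase needed for maternal imprints in the oocyte, 1.02 (FDR = 0.0445), both with overlapping groups. Kdm1b was at 28.6 CPM in Smchd1 null replicate 4, below all 3 wild-type lines. The maintenance factors Dnmt1, Uhrf1 and Trim28 had FDRs of 0.280, 0.865 and 0.360. None of the 16 was called by edgeR or DESeq2, or with voom alone.

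Because several members are best known from neurons, markers of other cell types were read beside them. The neuron markers summed to 35.1 to 165 CPM in wild-type and 70.1 to 256 CPM in Smchd1 null lines, and 5 of 7, among them Rbfox3 and Snap25, were at 0 in every library. Only Map2 and Tubb3 had counts, and Tubb3 was called higher (log2 fold change 1.95, FDR = 0.0339) with overlapping groups, at 66.0 ± 61.4 CPM in wild-type (SD, n = 3) and 114 ± 88.4 CPM in Smchd1 null lines (SD, n = 4). The stromal and endothelial markers summed to 57.1 to 70.5 CPM in wild-type, 63.1 to 96.0 CPM in Smchd1 null replicates 1 to 3 and 221 CPM in Smchd1 null replicate 4, and none was called. The T cell sum was 17.6 to 61.2 CPM in wild-type and 1.12 to 12.0 CPM in Smchd1 null lines, where Lck was called lower (log2 fold change -2.69, FDR = 0.0312). The myeloid and red cell sums stayed at or below 26.8 and 1.46 CPM. Among B cell markers Cd79a was called higher (log2 fold change 0.96, FDR = 0.0445) and Ebf1 lower (-0.67, FDR = 0.0494). In bulk RNA, a change in the share of cells and a change in RNA per cell cannot be told apart.

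The genes whose level over the 7 lines was most like that of Peg12, by root mean square difference of log2(CPM + 0.5), were Nfib at 0.36, Fzd10 at 0.40, Nr2f2 at 0.56, Elavl2 at 0.86 and Nectin3 at 1.22. All 5 were at 0 in every wild-type line and counted in every Smchd1 null line, a pattern that choosing genes by likeness to Peg12 favours. Nfib, a transcription factor, had 347, 326, 238 and 373 counts in Smchd1 null replicates 1 to 4, and Fzd10, a Wnt receptor, had 263, 372, 152 and 295. Nr2f2, an orphan nuclear receptor, lies on chromosome 7 as well, outside the window, at 297, 230, 202 and 117 counts.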

How the data were processed

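RNA-seq libraries from 7 lymphoma lines were made by the authors with the TruSeq RNA v2 kit, which does not keep strand. Reads were aligned by the authors, as their methods state, to mm10 with Subread and summarised per Entrez gene with featureCounts. The deposited values are raw counts, not normalised and not pooled, and each file also gives gene lengths. The submitters' processing notes also name CASAVA 1.8.2, edgeR 3.8.2 and limma 3.22.0. The treatment of reads mapping to several places or genes was not stated, which limits Snurf, Snhg14, the FRAT genes and other near-identical copies. Symbols came from RefSeq for 25275 of 27179 genes, and exons from GENCODE.

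Genes were kept at 0.5 CPM or more in at least 3 libraries, library sizes were recomputed, and TMM factors were computed. The groups were compared with limma 3.58.1 (voomWithQualityWeights, eBayes) in R 4.3.3, and Benjamini-Hochberg FDR values were taken over all genes tested, with a threshold of 0.05. Single values were also tested by the two-sided exact permutation test on mean CPM (35 arrangements). Alternatives used edgeR 4.0.16 and DESeq2 1.42.0, other factors, filters, weights and libraries. Sample weights, voom alone, edgeR and DESeq2 were each tested on simulated data with all libraries, TMM and the same filter. The simulation gave every library the same spread and set no gene to 0 in wild-type. It thus did not cover libraries of unequal spread, a close pair of lines or genes such as Peg12, Mkrn3 and Atp10a. The other settings were not tested on simulated data. RPKM uses the deposited gene length and total count. Libraries of 3626853 to 7519549 counts leave 3 counts over the wild-type group, or 0.181 CPM, as the floor for a fold bound, and intervals and floors cover counting error only.

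The cluster members and gene lists were chosen with earlier results of these data known. Named genes were the 8 members, Smchd1, chromosome 7 neighbours and cluster RNAs with at least 1 count, up to 3 called genes of each other list, and the 5 profiles closest to Peg12. The replicate numbers were not used to pair the samples, except in the setting with the replicate block. Genes at 0 are named in addition, and some single-gene values are not reported here.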

Additional observations from a re-analysis of the deposited data

Results flagged for a closer look

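In groups of 4 lines, a line was singled out when the share of the group's range taken by its gap to the nearest other line exceeded Dixon's 95% critical value, which chance gives in about 1 of 20 groups. This was applied to the Smchd1 null lines for 28 genes with any variation, and 3 were singled out. The genes were members, Smchd1, chromosome 7 neighbours, Frat1, Frat2, Dnmt3a, Tet2, Kdm1b and Ube2l3. Other genes named in the text were not screened. Among these, Elavl2 was at 258 CPM in Smchd1 null replicate 1 and at 49.0, 35.8 and 55.6 CPM in Smchd1 null replicates 2 to 4. Atp10a was at 16.6 CPM in Smchd1 null replicate 4, against 2.37 CPM in the next line. Ube2l3 was at 341 CPM in the same replicate, against 222 CPM in the next. Ndn was at 0.154 CPM in Smchd1 null replicate 3, which is its only count, and at 0 in the other lines.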

How the results depend on the processing

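Without 1 library at a time, the fold bounds ran from 166 to 323 for Peg12, 10.7 to 22.3 for Mkrn3 and 7.81 to 37.2 for Atp10a. Leaving out wild-type replicate 2 or 3, which lowers the summed wild-type depth, gave 179 or 166 for Peg12, 11.5 or 10.7 for Mkrn3 and 18.2 or 16.9 for Atp10a, and the 7.81 of Atp10a came without Smchd1 null replicate 4. The log2 fold changes of Peg12, Mkrn3, Atp10a and Snrpn kept their direction in every setting that could test them, and Peg12 passed the threshold in 14 of 20 alternatives, Mkrn3 in 12 and Atp10a in 10. The count of called members, 3 of 5 tested, became 0 with at least 10 counts required in every library (1 member, Ube3a, tested), 0 with voom alone, 1 with sample removal, 1 with edgeR, and 0 with wild-type replicates 2 and 3 summed, also with voom alone or edgeR on the summed libraries (both chosen after seeing the data). It ran from 0 to 3 without 1 library, being 0 without wild-type replicate 2 or 3. The count of called genes, 1466, became 12 with voom alone, 493 with block weights, 507 with sample removal, 12 with edgeR, 384 with DESeq2, 1 with the 2 wild-type libraries summed, 1 and 2 with voom alone and edgeR on the summed libraries, and 2797 at an FDR of 0.1, and ran from 1 to 1641 without 1 library (1 without wild-type replicate 2 or 3, 517 without Smchd1 null replicate 1, 332 without Smchd1 null replicate 2). The causes were not tested.

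Same-numbered lines did not deviate together (correlations of -0.16, 0.22 and -0.21, against -0.23 to 0.21 for 9 pairs with different numbers). With the replicate block 222 genes and 2 members were called, with Peg12 at 9.53, Mkrn3 at 4.48 and Atp10a at 3.51 (FDR = 0.0623). The log2 fold change of Ube3a, 0.02, turned to -0.15 with voom alone, -0.0027 with block weights, -0.16 with edgeR, -0.16 with DESeq2, -0.12 with the wild-type libraries summed, -0.20 and -0.21 with voom alone and edgeR on the summed libraries, -0.0047 with the replicate block, and lay between -0.18 and 0.092 without 1 library, with no call.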
